A study of Homo sapiens with 6 samples.

Results

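The genes described here are 10 regulators of the G1 phase of the cell cycle. They are the kinases CDK2, CDK4 and CDK6, the cyclins CCND1, CCND3, CCNE1 and CCNE2, the inhibitors CDKN1A and CDKN1B, and the retinoblastoma protein gene RB1. They were chosen by name, with earlier results of these data known. All 10 were found among the 18999 features of the deposited FPKM table. FPKM are fragments scaled to the length of the feature and to the depth of the library.

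MCF10A cells, an immortalised human mammary epithelial line that does not form tumours, were compared after stable transduction with a retrovirus. The pre-miR-203a cells carried pMSCVpuro with the pre-miR-203a hairpin, and the empty vector cells carried pMSCVpuro without an insert. Both populations were selected with puromycin and grown in medium with EGF, insulin, hydrocortisone, cholera toxin and horse serum, so the mitogens that induce D cyclins were present in both. Each group had 3 libraries, numbered 1 to 3, and nothing in the labels says that they came from separate cultures, so p-values measure the spread between libraries, which may be technical. The series text speaks of total RNA and the extract protocol of an AGO2 immunoprecipitation, and which of these applied was not settled by the labels.

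In G1, D cyclins bind CDK4 or CDK6 and E cyclins bind CDK2. These kinases phosphorylate RB1, which otherwise holds E2F factors inactive, and free E2F factors switch on the genes of DNA replication, with the E cyclins among their targets. CDKN1A (p21) and CDKN1B (p27) inhibit CDK2 complexes and also help to assemble D cyclin complexes. In stratified epithelium, miR-203 is known from the cells that leave the proliferating layer. The levels below are averages over a population, in which fewer cells at one stage of the cycle and less RNA per cell cannot be told apart.

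The mature microRNA and the seed matches of the G1 genes are shown first because CDK6 and RB1 hold the longest ones. The 22-base miR-203a-3p lies on the plus strand at chr14:104117469-104117490 of GRCh38.p14, per RefSeq, and its seed, bases 2 to 8, is in capitals.
miR-203a-3p: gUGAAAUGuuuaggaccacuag
The windows of 30 bases below are from GENCODE 29 on GRCh38, where each gene's longest 3′ UTR was searched, on the strand of the gene. Capitals mark the match, whose letters pair with the seed except for the last A of the 8mer. That A lies opposite the first base of the microRNA, outside the seed, and does not pair with it. In CDK6 the 8mer lies at chr7:92610927-92610956 on the minus strand and the 7mer-m8 at chr7:92611895-92611924. In RB1 the 7mer-m8 lies at chr13:48481594-48481623 on the plus strand. The 6mers of CDK2 and CDKN1B lie on the plus strand at chr12:55972544-55972573 and chr12:12722041-12722070.
CDK6 8mer: tacttttttccCATTTCAAgggaagaggca
CDK6 7mer-m8: aagcttggggcCATTTCAgccccctgtatt
RB1 7mer-m8: aaacttgactcCATTTCAtcattgtttctg
CDK2 6mer: aattatatttatATTTCAggttatatccaa
CDKN1B 6mer: tctttaaacagtATTTCAttgcctgtgtat

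The motifs searched, on the sense strand of the 3′ UTR alone, were CATTTCAA (8mer), CATTTCA (7mer-m8), ATTTCAA (7mer-A1) and ATTTCA (6mer), each longer motif containing the shorter ones. The 8mer started at base 4195 of the 10219-base 3′ UTR of CDK6 and the 7mer-m8 at base 3227. Another 3 matches of 6 bases lay at bases 1633, 2906 and 5106. The RB1 3′ UTR of 1819 bases held the 7mer-m8 at base 1534 and a 6mer at base 680. CDK4, CCND1, CCND3, CCNE1, CCNE2 and CDKN1A had no match in 3′ UTRs of 531 to 3192 bases. Of 10186 tested genes with a 3′ UTR, 7.34% held an 8mer, 22.8% a 7mer-m8 or longer and 49.9% at least a 6mer. Their median 3′ UTR had 1404 bases, so that of CDK6 was far longer than most. A match of letters is a description and not a shown site.

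**Figure D1:**
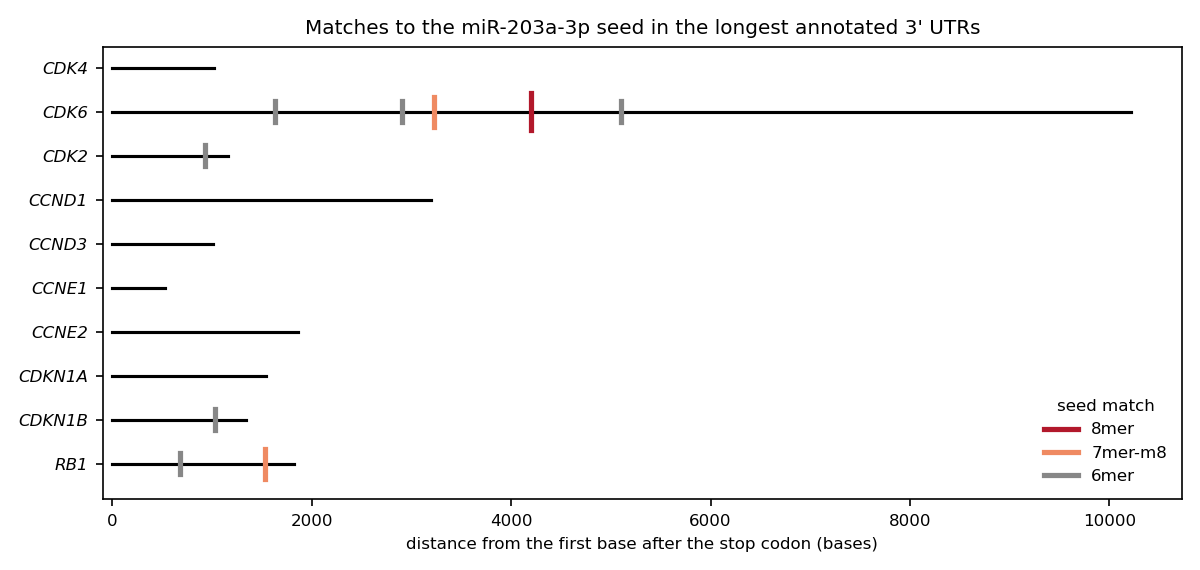
Seed matches along the 3′ UTR of each G1 gene, the longest one annotated, drawn as a line from the first base after the stop codon (x axis, bases). CDK6 has the longest line, 10219 bases, and carries the 8mer, while 6 genes carry no mark.

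The level of the transduced hairpin gene separated the groups. The level of the mature microRNA was not analysed here. The feature MIR203A, the gene of the hairpin, had 19005, 3699 and 24945 FPKM in pre-miR-203a libraries 1, 2 and 3, against 4.63, 5.44 and 6.96 FPKM in the empty vector libraries. The levels of pre-miR-203a library 2 were the lowest of its group, and the groups did not overlap. MIR203A rose by 10.83 ± 0.66 on the log2 scale (SE), with a limma adjusted p of 0.0014.

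All 10 G1 genes passed the filter of at least 1 FPKM in at least 3 libraries, which kept 11271 features, and all were tested with limma on log2(FPKM + 1). CDK2, CDK6, CCNE1, CCNE2 and RB1 fell in pre-miR-203a cells, CCND1 rose, and CDK4, CCND3, CDKN1A and CDKN1B did not pass an adjusted p of 0.05. A call means an adjusted p under 0.05 after Benjamini-Hochberg adjustment over all features tested. The 5 that fell and the 1 that rose compare with 9.18% of all tested features called lower and 6.59% called higher, 15.8% in all. The groups did not overlap for 8 of the 10 genes, against 37.5% of all tested features. The median log2 fold change was −0.74 over the 10 genes and −0.01 over all tested features. Since the genes were chosen with earlier results of these data known, these counts describe them and test nothing.

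**Figure D2:**
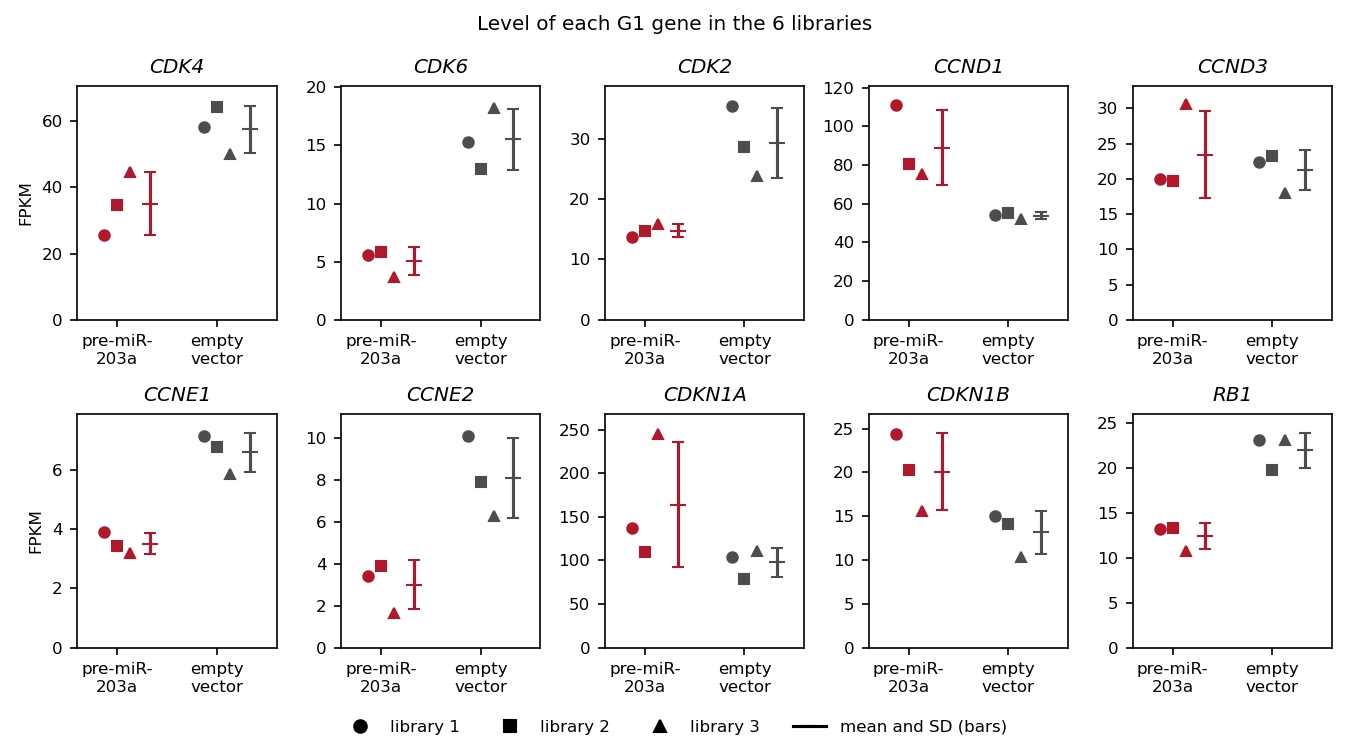
FPKM of the 10 G1 genes (y axes, linear, from 0) in each library, with pre-miR-203a left of empty vector in each panel, points for libraries and lines for the mean and SD. The groups overlap in the panels of CCND3 and CDKN1A and are apart in the other 8.

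CDK6 (ENSG00000105810.10, chr7:92604921-92836594, minus strand), a partner of the D cyclins, showed the strongest fall of the 10 genes. It had 5.56, 5.87 and 3.68 FPKM in pre-miR-203a libraries 1, 2 and 3, against 15.3, 13.0 and 18.2 FPKM in empty vector libraries 1, 2 and 3. Every pre-miR-203a library lay below every empty vector library, and the libraries numbered 3 gave both the lowest and the highest value. The mean was 5.04 ± 1.18 FPKM in pre-miR-203a cells and 15.5 ± 2.64 FPKM in empty vector cells (SD, n = 3 each). The log2 fold change was −1.46 ± 0.19 (SE), with a limma adjusted p of 0.0044. Of all tested features, 54 (0.479%) had a lower log2 fold change. CDK6 was called in all 13 other settings, with adjusted p between 0.0020 and 0.0240.

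CDK4 (ENSG00000135446.17, chr12:57747727-57756013, minus strand) is the other kinase of the D cyclins. It had 25.7, 34.8 and 44.6 FPKM in pre-miR-203a libraries 1, 2 and 3, against 58.2, 64.2 and 50.0 FPKM in empty vector libraries 1, 2 and 3. All pre-miR-203a values lay below all empty vector values, and the libraries numbered 3 came closest to each other. The means were 35.0 ± 9.48 and 57.5 ± 7.16 FPKM in pre-miR-203a and empty vector cells (SD, n = 3 each). CDK4 had a log2 fold change of −0.73 ± 0.20 (SE), and its limma adjusted p of 0.0526 just missed the threshold. Without pre-miR-203a library 3 the value was −0.91 with an adjusted p of 0.020, and CDK4 was then called. It was also called with limma-voom on recovered reads, at 0.0263, and with median-ratio scaling, at 0.0495.

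CDK6 was set against CDK4 within each library. The log2 difference of CDK6 minus CDK4, on the scale of FPKM + 1, was −2.02, −2.38 and −3.28 in pre-miR-203a libraries 1, 2 and 3. In empty vector libraries 1, 2 and 3 it was −1.86, −2.22 and −1.40. The groups overlapped, since empty vector library 2 lay below pre-miR-203a library 1. The difference between the group means was −0.73, with p = 0.2 in an exact two-sided permutation test, where 3 against 3 libraries allow no p below 0.1. Differences between single libraries of the groups ran from −1.88 to 0.20. Between libraries with the same number the difference was −0.17, −0.16 and −1.88, lower in pre-miR-203a in 3 of 3 pairs, with an exact paired p of 0.25, the smallest that 3 pairs allow. The mean difference was −0.37 without pre-miR-203a library 3 and −0.16 without both libraries numbered 3. Neither test could reach 0.05 with 3 libraries per group, and the size of the difference rested mostly on the libraries numbered 3.

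The share of CDK6 in the summed FPKM of both kinases was 17.8%, 14.4% and 7.62% in the pre-miR-203a libraries, against 20.9%, 16.8% and 26.7% in the empty vector libraries. By FPKM, CDK4 RNA was higher than CDK6 RNA in all 6 libraries. This ranking of different genes depends on the scaling to feature length. By recovered reads CDK6 was the higher in empty vector library 1 (2949 against 2830) and library 3 (6415 against 4441). In the other libraries CDK4 had more reads.

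**Figure D3:**
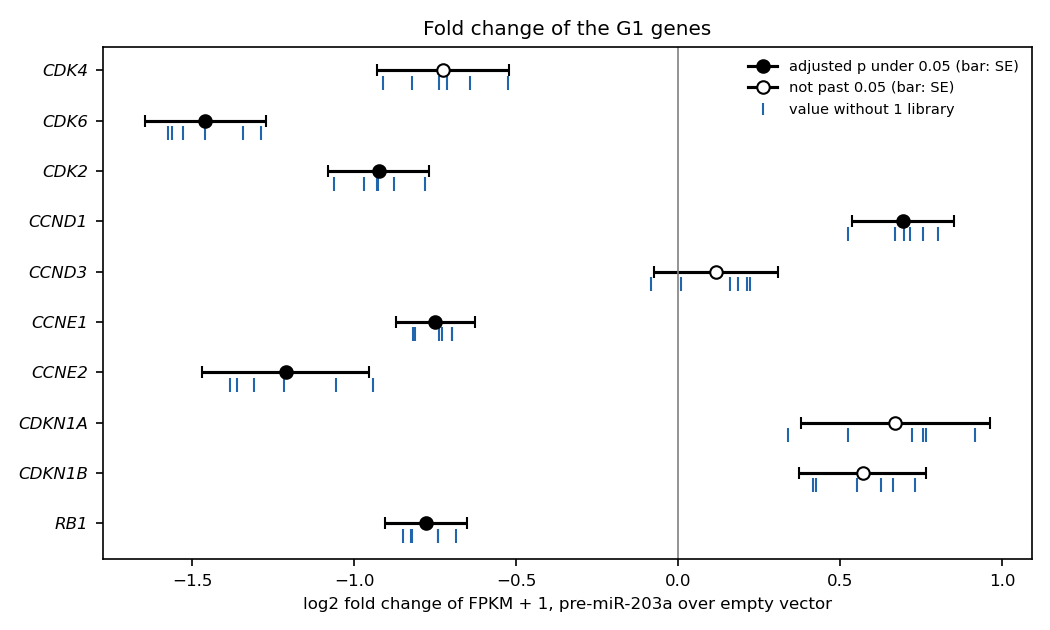
Log2 fold change of FPKM + 1, pre-miR-203a over empty vector (x axis), of each G1 gene, with bars for the SE, filled circles for an adjusted p under 0.05, and ticks for the value without 1 library. CDK6 lies farthest to the left at −1.46, and the ticks of CCND3 fall on both sides of 0.

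CCND1, cyclin D1, rose, while of the kinases it binds CDK6 fell and CDK4 did not pass the test. CCND1 (ENSG00000110092.4, chr11:69641087-69654474, plus strand) had 111, 80.4 and 75.4 FPKM in pre-miR-203a libraries 1, 2 and 3, against 54.1, 55.4 and 51.9 FPKM in the empty vector libraries. The empty vector libraries lay close together, while pre-miR-203a library 1 stood above the other two of its group. The means were 88.9 ± 19.3 FPKM in pre-miR-203a cells and 53.8 ± 1.76 FPKM in empty vector cells (SD, n = 3 each). That is a log2 fold change of 0.69 ± 0.16 (SE), with a limma adjusted p of 0.0253. The call was lost with TPM (adjusted p = 0.0826), without pre-miR-203a library 1 (0.0503) and without empty vector library 1, 2 or 3 (0.0925, 0.0764 and 0.0811).

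CCND3 (ENSG00000112576.13, chr6:41934933-42050357, minus strand), cyclin D3, had 20.0, 19.7 and 30.6 FPKM in pre-miR-203a libraries 1, 2 and 3, against 22.4, 23.2 and 18.0 FPKM in empty vector libraries 1, 2 and 3. Its groups overlapped, with the libraries numbered 3 on opposite sides of the others. CCND3 had a log2 fold change of 0.12 ± 0.19 (SE), with a limma adjusted p of 0.749, and of −0.083 without pre-miR-203a library 3. CCND1 over CCND3, as a ratio of FPKM, was 5.56, 4.08 and 2.46 in the pre-miR-203a libraries and 2.41, 2.39 and 2.89 in the empty vector libraries.

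The FPKM of CCND1 divided by the summed FPKM of CDK4 and CDK6 came to 3.55, 1.98 and 1.56 in pre-miR-203a libraries 1, 2 and 3. In the empty vector libraries the same ratio was 0.736, 0.718 and 0.761. Thus, by FPKM, cyclin D1 RNA exceeded the summed RNA of CDK4 and CDK6 in every pre-miR-203a library and in no empty vector library. These ratios restate the levels above and were not tested.

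CDK2 and both E cyclins, which act together late in G1, fell. CDK2 (ENSG00000123374.11, chr12:55966769-55972784, plus strand) had 13.8, 14.8 and 15.8 FPKM in pre-miR-203a libraries 1, 2 and 3, against 35.4, 28.6 and 23.7 FPKM in empty vector libraries 1, 2 and 3. Pre-miR-203a values were close together, and the groups did not overlap. The means were 14.8 ± 1.01 FPKM in pre-miR-203a cells and 29.3 ± 5.87 FPKM in empty vector cells (SD, n = 3 each). CDK2 had a log2 fold change of −0.92 ± 0.16 (SE), with a limma adjusted p of 0.0095.

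CCNE1 (ENSG00000105173.14, chr19:29811898-29824308, plus strand), cyclin E1, had 3.90, 3.43 and 3.19 FPKM in the pre-miR-203a libraries, against 7.13, 6.76 and 5.86 FPKM in the empty vector libraries. The spread within each group was small beside the gap between them. The log2 fold change was −0.75 ± 0.12 (SE), with a limma adjusted p of 0.0087. CDK2 and CCNE1 kept their calls in all 13 other settings.

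CCNE2 (ENSG00000175305.17, chromosome 8, minus strand), cyclin E2, had 3.43, 3.91 and 1.67 FPKM in pre-miR-203a libraries 1, 2 and 3, against 10.1, 7.91 and 6.28 FPKM in the empty vector libraries. The lowest value in each group came from library 3. It rested on 56 recovered reads in pre-miR-203a library 3, the fewest of any of the 10 genes in any library. Its log2 fold change was −1.21 ± 0.26 (SE), with a limma adjusted p of 0.0201. The call was lost without pre-miR-203a library 1 (adjusted p = 0.0503) and without empty vector library 1 or 2 (0.0761 and 0.0625). CCNE1 over CCNE2, as a ratio of FPKM, was 1.14, 0.878 and 1.91 in the pre-miR-203a libraries, against 0.706, 0.855 and 0.933 in the empty vector libraries, where CCNE2 was the higher of the pair in all 3.

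The inhibitors had higher means in pre-miR-203a cells but did not pass the test. CDKN1A (ENSG00000124762.14, chr6:36676460-36687339, plus strand) had 137, 109.6 and 245 FPKM in pre-miR-203a libraries 1, 2 and 3, against 104, 78.9 and 110.4 FPKM in empty vector libraries 1, 2 and 3. Pre-miR-203a library 3 stood far above the other libraries, and pre-miR-203a library 2 lay below empty vector library 3. The means were 164 ± 71.4 FPKM in pre-miR-203a cells and 97.7 ± 16.6 FPKM in empty vector cells (SD, n = 3 each). The log2 fold change was 0.67 ± 0.29 (SE), with a limma adjusted p of 0.172. It was 0.34 without pre-miR-203a library 3, and no setting called the gene.

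CDKN1B (ENSG00000111276.11, chr12:12715058-12722371, plus strand) had 24.4, 20.3 and 15.6 FPKM in pre-miR-203a libraries 1, 2 and 3, against 15.0, 14.2 and 10.3 FPKM in empty vector libraries 1, 2 and 3. The groups did not overlap, though pre-miR-203a library 3 lay close to empty vector library 1. CDKN1B had a log2 fold change of 0.57 ± 0.20 (SE), with a limma adjusted p of 0.0980. With the replicate number as a block the limma adjusted p was 0.0260, and CDKN1B was then called. Between libraries with the same number the log2 differences were 0.67, 0.49 and 0.55, higher in pre-miR-203a in 3 of 3 pairs. With that block 7 of the 10 genes were called, against 17.5% of all tested features.

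Set against CDK2, the kinase they inhibit, both inhibitors stood higher in every pre-miR-203a library than in any empty vector library. CDKN1A over CDK2, as a ratio of FPKM, was 9.98, 7.43 and 15.5 in the pre-miR-203a libraries and 2.93, 2.76 and 4.65 in the empty vector libraries. CDKN1B over CDK2 was 1.77, 1.37 and 0.988 in the pre-miR-203a libraries and 0.423, 0.494 and 0.435 in the empty vector libraries. Neither ratio overlapped between the groups, while CDKN1A over CDKN1B did, at 5.63, 5.40 and 15.7 in the pre-miR-203a libraries and 6.93, 5.57 and 10.7 in the empty vector libraries. The ratios to CDK2 restate the levels of the inhibitors and of CDK2, which fell, and were not tested.

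**Figure D4:**
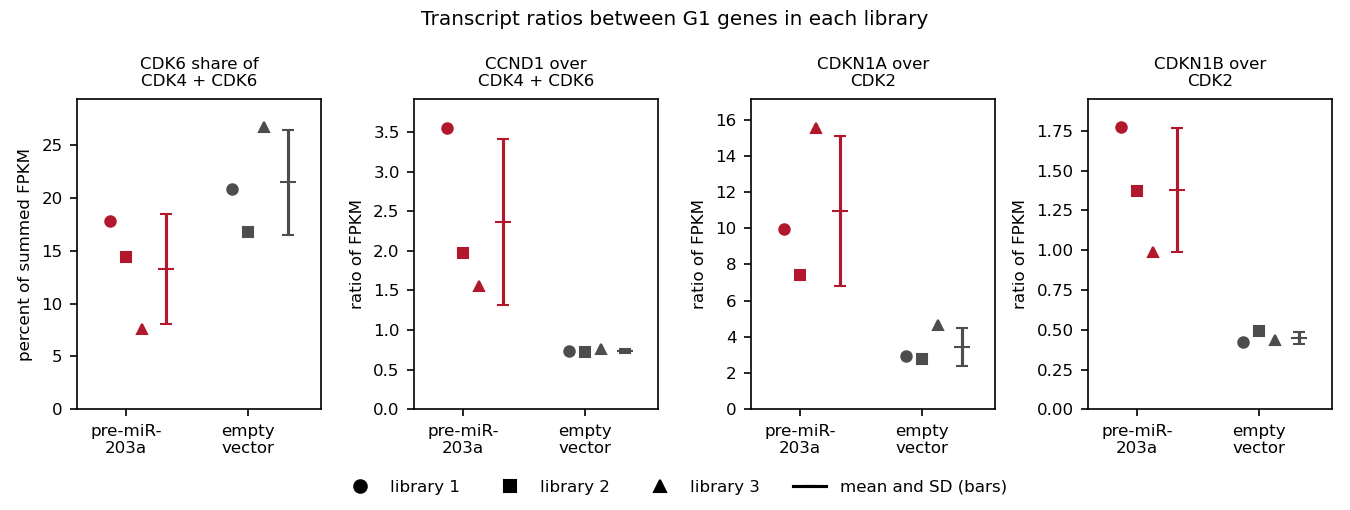
Ratios of FPKM between G1 genes in each library (y axes, linear, from 0), with pre-miR-203a left of empty vector. CCND1 over CDK4 + CDK6, CDKN1A over CDK2 and CDKN1B over CDK2 are higher in each pre-miR-203a library than in any empty vector library.

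RB1 (ENSG00000139687.15, chr13:48303726-48599436, plus strand), the substrate of these kinases, had 13.2, 13.3 and 10.8 FPKM in pre-miR-203a libraries 1, 2 and 3, against 23.1, 19.8 and 23.1 FPKM in empty vector libraries 1, 2 and 3. Its groups were well apart. The means were 12.4 ± 1.45 FPKM in pre-miR-203a cells and 22.0 ± 1.93 FPKM in empty vector cells (SD, n = 3 each). RB1 had a log2 fold change of −0.78 ± 0.13 (SE), with a limma adjusted p of 0.0087, and all 13 other settings called it.

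By mean FPKM the order of the genes in pre-miR-203a cells was CDKN1A, CCND1, CDK4, CCND3, CDKN1B, CDK2, RB1, CDK6, CCNE1 and CCNE2. In empty vector cells the order was CDKN1A, CDK4, CCND1, CDK2, RB1, CCND3, CDK6, CDKN1B, CCNE2 and CCNE1. In pre-miR-203a cells the neighbours whose libraries did not overlap were CCND1 and CDK4, CDK2 and RB1, and RB1 and CDK6. In empty vector cells they were CDKN1A and CDK4, CCND1 and CDK2, CDK2 and RB1, and CDKN1B and CCNE2. For other neighbours the ranges over the libraries of the group overlapped, which does not show that their order varied within libraries. CDKN1B stood above CDK2 and CDK6 in the order of pre-miR-203a cells and below both in that of empty vector cells.

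The authors' deposited table, a DESeq2 comparison of the same libraries, called 9 of the 10 genes at an adjusted p under 0.05, all but CCND3, against 18.3% of its features with an adjusted p. Turned to pre-miR-203a over empty vector, the log2 fold change in the authors' deposited table was −1.61 for CDK6. In the authors' deposited table CDK4 stood at −0.69 with a DESeq2 adjusted p of 0.0123, and CDKN1B at 0.64 with 0.0193. CDKN1A stood at 0.76 with a DESeq2 adjusted p of 0.0476 in the authors' deposited table. These 3 genes were called in that table and not by limma, and CCND3 was called by neither.

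Whether reads were counted by strand is not stated, so overlapping genes on opposite strands may share them. In GENCODE 29, 8 tested features overlap a G1 gene, and none was called, against 15.8% of all tested features. So few features say little beside that share, and the part of shared reads was not tested. Overlaps were taken over whole genes, introns included, so the shared bases given here need not be shared exons. TSPAN31, a tetraspanin gene that shares 2485 bases with CDK4 on the opposite strand, had 5.53 ± 1.09 FPKM in pre-miR-203a cells and 3.90 ± 0.247 FPKM in empty vector cells (SD, n = 3 each). MARCHF9 shares 916 bases with CDK4, LTO1 1399 with CCND1, INTS8 1977 and NDUFAF6 912 with CCNE2, and LPAR6 and RCBTB2 55138 and 44298 with RB1. AC008115.3 shares 549 bases with CDKN1B on the same strand. The limma adjusted p of the 8 ran from 0.107 to 0.992. The antisense gene CDK6-AS1 was under the filter, with 3, 6 and 3 reads in the pre-miR-203a libraries, against 2, 19 and 17 in the empty vector libraries. PMEL, which shares 6016 bases with CDK2 on the opposite strand, was also under the filter. It had 12, 16 and 6 reads in the pre-miR-203a libraries, against 12, 37 and 14 in the empty vector libraries.

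The genes whose levels most resembled CDK6 over the 6 libraries, by Pearson's r of log2(FPKM + 1) among 10194 tested protein-coding genes, were YWHAQ, TANK, UMAD1, TAF1B and CGAS. Their r ran from 0.996 to 0.999, and r was above 0.9 for 1010 genes (9.91%). The 6 libraries fall into 2 groups that do not overlap for CDK6, so this likeness carries the difference between the groups. UMAD1 had a log2 fold change of −1.31 and YWHAQ of −0.21, so genes with nearly the same r differed in the size of the change.

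Other genes of the G1/S pathway were taken from 9 lists with 89 entries, of which 85 were tested. The lists too were chosen with earlier results of these data known. In pre-miR-203a cells 30 fell and 6 rose, beside 9.18% of all tested features called lower and 6.59% called higher. Their median log2 fold change was −0.24 against −0.01 over all tested features. CDKN2A, CDKN2B and CCND2 were not analysed here, and CDK3 was under the filter. The genes that fell were mostly those that E2F factors switch on for S phase.

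Of the 20 E2F-responsive S phase genes, 19 fell and none rose, with a median log2 fold change of −1.20. CDC45, which joins the replicative helicase, had 8.28 ± 1.05 FPKM in pre-miR-203a cells and 24.1 ± 3.69 FPKM in empty vector cells (SD, n = 3 each). Its helicase partner MCM6 had 16.6 ± 2.65 FPKM in pre-miR-203a cells and 41.3 ± 6.33 FPKM in empty vector cells. RRM2, a subunit of ribonucleotide reductase, and PCNA, the sliding clamp of DNA polymerase, had log2 fold changes of −1.59 and −1.43. EZH2, a histone methyltransferase, was the one not called, at −0.62 with a limma adjusted p of 0.11, or 0.0306 with the replicate block, which calls it.

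Among the 10 E2F and DP factors, 2 fell and none rose, near the 15.8% called over all tested features, and the median log2 fold change was −0.37. They were the repressor genes E2F7 (−1.56 ± 0.23, limma adjusted p = 0.0071) and E2F8 (−0.93 ± 0.19, limma adjusted p = 0.0173). The E2F8 call was lost without pre-miR-203a library 1 (0.0652) and without empty vector library 1 or 2 (0.0727 and 0.0651). The activator gene E2F1 had 6.81, 8.32 and 5.99 FPKM in the pre-miR-203a libraries, against 17.9, 20.4 and 9.02 FPKM in the empty vector libraries. Its log2 fold change was −1.0, with a limma adjusted p of 0.0531, and with the replicate block it was called at 0.0232.

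Of the other pocket proteins, RBL1 (p107) fell and RBL2 (p130) was not called. Over all tested features 15.8% were called, and so short a list says little beside that share. RBL1 had 5.36, 6.04 and 3.81 FPKM in pre-miR-203a libraries, against 12.0, 10.5 and 9.27 FPKM in empty vector libraries. RBL2 had 14.1 ± 1.37 FPKM in pre-miR-203a cells and 13.8 ± 1.95 FPKM in empty vector cells (SD, n = 3 each). For RBL1 the log2 fold change was −0.94 ± 0.17 (SE) with a limma adjusted p of 0.0116, and the call was lost without empty vector library 1 (0.0539).

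Of the 3 tested INK4 and CIP/KIP inhibitors, CDKN1C (p57) rose and none fell. Beside the 15.8% called over all tested features, this count in so short a list is no result about it. CDKN1C had 6.66, 3.70 and 1.96 FPKM in pre-miR-203a libraries 1, 2 and 3, against 0.590, 0.322 and 0.0843 FPKM in empty vector libraries 1, 2 and 3. These rest on 275, 191 and 37 recovered reads in the pre-miR-203a libraries and on 23, 28 and 6 in the empty vector libraries. In both groups library 1 was the highest and library 3 the lowest, and the groups did not overlap. Its log2 fold change was 1.85 ± 0.33 (SE), with a limma adjusted p of 0.0114. CDKN1C passed the filter only through the pre-miR-203a libraries, where it was high. Its entry into the test thus depended on the rise, and this p adds no separate support. With no filter the limma adjusted p was 0.0258. CDKN2C (p18) and CDKN2D (p19), inhibitors of CDK4 and CDK6, had log2 fold changes of −0.36 and −0.14 and were not called.

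Of the 12 genes that degrade G1 cyclins and CIP/KIP inhibitors, 5 fell, 1 rose and the median log2 fold change was −0.08. Over all tested features 9.18% were called lower and 6.59% higher. DTL, the receptor by which a CUL4 ligase recognises CDKN1A in S phase, had 4.05 ± 0.619 FPKM in pre-miR-203a cells and 16.3 ± 2.25 FPKM in empty vector cells (SD, n = 3 each). Of 5 parts of the SCF ligase that recognises CDKN1B, 3 fell, with log2 fold changes of −0.65 for SKP2, −0.99 for CKS1B and −0.79 for CUL1. The other two, SKP1 and RBX1, had log2 fold changes of 0.20 and −0.08 and were not called (limma adjusted p = 0.410 and 0.773). FBXO4, an F-box gene, fell by 0.93 on the log2 scale. FBXO31, an F-box gene linked to cyclin D1, rose by 0.47, with a limma adjusted p of 0.0399 that was 0.0589 with the replicate block and 0.0696 to 0.150 without any 1 library other than pre-miR-203a library 3. The FBXO31 call was also lost with no filter (0.0626) and with TPM (0.144). SKP2 was not called without pre-miR-203a library 1 or 2 or empty vector library 1 or 2 (0.0542 to 0.0964), nor CKS1B without pre-miR-203a library 1 or empty vector library 1 or 2 (0.0731 to 0.0782).

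Of the 6 genes of the CDK-activating kinase and the CDC25 phosphatases, which switch CDKs on, CDC25C fell and none rose, with a median log2 fold change of −0.20. This count is near the 15.8% called over all tested features and is no result about the list. CDC25C had a log2 fold change of −0.97 ± 0.25 (SE) and a limma adjusted p of 0.0398, and it was not called without pre-miR-203a library 3 (0.0535), without empty vector library 1, 2 or 3 (0.122, 0.117 and 0.0745) or without both libraries numbered 3 (0.0587). The CDC25C call was also lost with no filter (0.0726) and with TPM (0.0505).

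Of the 20 p53-responsive genes other than CDKN1A, 3 rose and 1 fell, with a median log2 fold change of −0.02. That count lies near the 15.8% called over all tested features and is no result about the list. TP53I3, an oxidoreductase, had 68.9 ± 15.7 FPKM in pre-miR-203a cells and 28.4 ± 5.24 FPKM in empty vector cells (SD, n = 3 each). BTG2, an antiproliferative gene, rose by 0.86 and TP53INP1, a p53 cofactor, by 0.75. PHLDA3, an inhibitor of AKT, fell by 1.12 on the log2 scale, with a limma adjusted p of 0.0275 that was 0.0510 with the replicate block. MDM2, the ligase that degrades p53, was not called, at 0.10. Each of pre-miR-203a libraries 1 and 2 and of empty vector libraries 1, 2 and 3, left out in turn, ended the calls of TP53INP1 (0.0664 to 0.0970) and PHLDA3 (0.0554 to 0.0970). With no filter both calls were lost (0.0506 and 0.0546), as was that of TP53INP1 with TPM (0.0750), and BTG2 was not called without pre-miR-203a library 1 (0.0538) or empty vector library 2 (0.0518).

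Among 12 regulators of CCND1 and CDKN1A transcription, 1 rose and 1 fell, again near the 15.8% called over all tested features, with a median log2 fold change of −0.02. KLF4, an epithelial factor that activates CDKN1A, had 5.04 ± 0.261 FPKM in pre-miR-203a cells and 2.02 ± 0.263 FPKM in empty vector cells (SD, n = 3 each). ETS1, a factor of the ETS family, had 9.09 ± 1.63 FPKM in pre-miR-203a cells and 20.9 ± 6.01 FPKM in empty vector cells. ETS1 lost its call without pre-miR-203a library 1 (0.0596). With the replicate block 4 of these 12 genes were called, against 17.5% of all tested features.

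**Figure D5:**
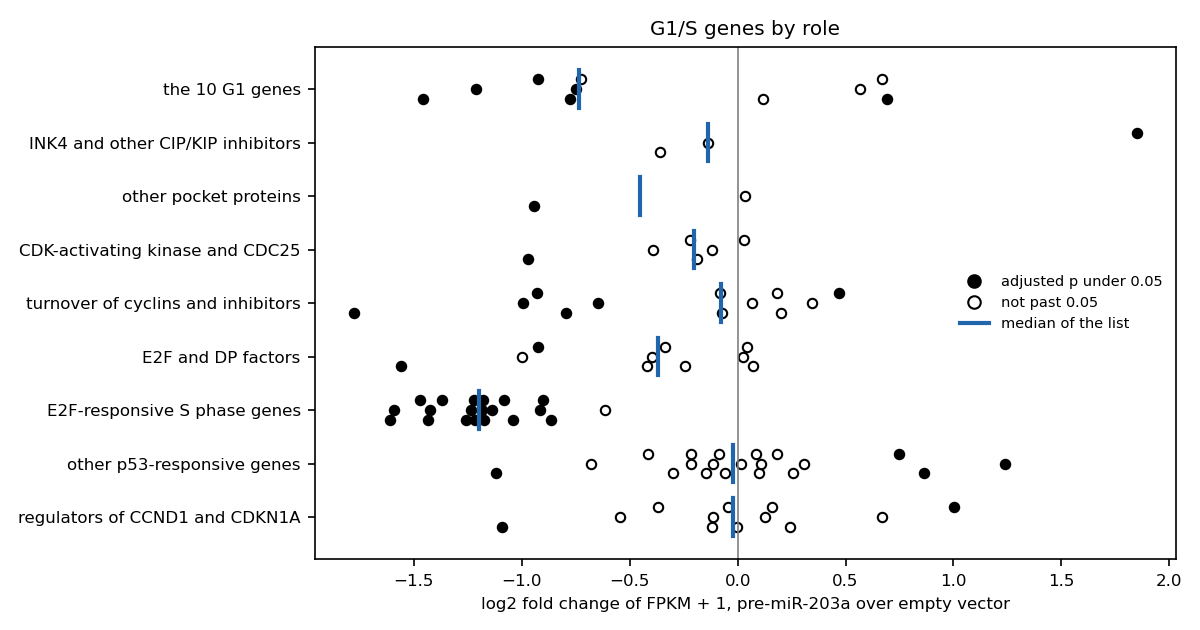
Log2 fold change of FPKM + 1, pre-miR-203a over empty vector (x axis), of the 10 G1 genes and of the tested genes of 8 other lists, a circle for each gene, filled where the adjusted p is under 0.05, with a bar at the median. The E2F-responsive S phase genes lie together around a median of −1.20, and CDKN1C lies farthest to the right at 1.85. CDKN1C passed the filter only through the pre-miR-203a libraries.

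Recovered reads over the listed features ranged from 7632063 to 20831785 in the pre-miR-203a libraries and from 15724554 to 35084590 in the empty vector libraries. Pre-miR-203a library 3 was the shallowest, and both libraries numbered 3 stood apart on the second principal component, which held 26.6% of the variance. The epithelial markers were present, 8 of 8 tested, with summed FPKM of 972 to 1405 in pre-miR-203a cells and 1049 to 1343 in empty vector cells, and KRT14 near 1 FPKM in both. Of these, CDH1 rose and KRT5 fell, and the KRT5 call was lost without pre-miR-203a library 1 or 2 or empty vector library 1 or 2 (0.0543 to 0.0958). Of 7 leukocyte markers 4 were listed, with summed FPKM of 20.6 to 29.7 in pre-miR-203a cells and 6.64 to 12.1 in empty vector cells, nearly all of it CD14. CD14 rose, at 25.5 ± 4.53 FPKM in pre-miR-203a cells and 9.69 ± 3.07 FPKM in empty vector cells (SD, n = 3 each), and its part in the results on the G1 genes was not tested. The 5 listed fibroblast markers summed to 5.53 to 9.50 FPKM in pre-miR-203a cells and 3.89 to 6.91 FPKM in empty vector cells, with COL1A1 called higher, a call lost without pre-miR-203a library 1 (0.0525) or empty vector library 1 (0.0633). The 4 listed endothelial markers summed to 0.271 to 0.419 FPKM in pre-miR-203a cells and 0.361 to 0.519 FPKM in empty vector cells.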

How the data were processed

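Groups and replicate numbers came from the sample titles. The submitters' processing notes name hg38, featureCounts 2.0.0 and DESeq2 1.28.1. How reads were aligned, by which annotation and whether by strand is not given in the sources used here. FPKM of 18999 features were deposited by the authors, and a second deposited table held TPM, log2 fold changes (control on top), p-values and the baseMean, a mean signal of reads divided by size factors. The smallest baseMean was 0.955, so lower features were not analysed here. A RIP-seq data set was not analysed here.

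Features that reached 1 FPKM in 3 or more libraries were tested with limma 3.58.1 in R 4.3.3 on log2(FPKM + 1), with group as the only term, a mean trend and robust eBayes. This scale understates changes of low genes. Reads were recovered from FPKM and baseMean, and 100% came out whole within 0.01. Replicates differed beyond sampling noise, with a chi-square of at least 11.1 per feature. Deviations of same-numbered libraries correlated by 0.433, 0.269 and 0.321, against −0.417 to 0.221 for other pairs, so the number was used as a block in a second fit, though the labels name no shared batch.

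Tried as alternatives were a pseudocount of 0.1, no filter, TPM, median-ratio scaling, limma-voom on recovered reads, the block, each library left out and, chosen after seeing the data, both libraries numbered 3 left out. The G1 genes and the lists were chosen with earlier results of these data known. The genes named are the G1 genes, MIR203A, up to 4 called genes of each list with the smallest p, the tested features that overlap a G1 gene, and the 5 genes most like CDK6. RBL2, CDKN2C, CDKN2D, SKP2, FBXO31, E2F1, MDM2, EZH2, SKP1, RBX1, CDK6-AS1, PMEL, CDK3 and KRT14 were named after their values were seen. Overlaps used GENCODE 29, since the deposited tables give no coordinates. In simulated data for this comparison, with 200 changed genes among 11271, the test found 29.9% of those changed 1.5-fold, 95.5% at 2-fold and 97.0% at 4-fold, and called 10 unchanged genes. The simulated reads had the same dispersion for every gene and no effect of the replicate number. These figures may therefore be too favourable for the real libraries.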

Additional observations from a re-analysis of the deposited data

How the results depend on the processing

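Of the 36 named genes called by limma, 20 were called in all 13 other settings, among them CDK2, CDK6, CCNE1 and RB1. Over all tested features 1778 were called. Leaving out 1 library gave 745 to 2257 calls, namely 883 when pre-miR-203a library 1 was left out, 745 for empty vector library 1 and 900 for empty vector library 2, and leaving out both libraries numbered 3 gave 3190. Fewer libraries leave less evidence, but the cause of the higher count was not tested. Of the 10 G1 genes, 6 were called, 4 to 8 without 1 library, 7 with the replicate block and 8 without both libraries numbered 3. The block changed the call of 1 of the 10, CDKN1B. Of the other G1/S genes 36 were called, 24 to 39 without 1 library and 49 without both libraries numbered 3. CDK6 minus CDK4 ran from −1.0 to −0.37 without 1 library, and was −0.73 with pairing (exact p = 0.25).

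Some values that were not called changed sign. Without 1 library CCND3 ranged from −0.083 to 0.22, MARCHF9 from −0.24 to 0.20, INTS8 from −0.20 to 0.020, AC008115.3 from −0.55 to 0.47, LPAR6 from −0.010 to 0.16 and RBL2 from −0.075 to 0.11. Without both libraries numbered 3, CCND3 was −0.19, MARCHF9 −0.19, INTS8 0.067 and AC008115.3 −0.096. With TPM, MARCHF9 was −0.061, AC008115.3 −0.0015 and RBL2 −0.058, and with limma-voom MARCHF9 was −0.064. The causes were not tested. CCNE2 had 56 recovered reads in pre-miR-203a library 3, the shallowest. In simulated data the test found 29.9% of the genes changed 1.5-fold. The part of depth in either was not tested.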
